A study of Mus musculus with 6 samples.

Results

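The genes described here encode 10 transcription factors of the blood stem cell: Gata2, Tal1, Lmo2, Lyl1, Erg, Fli1, Mecom, Hhex, Hlf and Etv6. They were found by gene name in a table of 24012 genes, and each had 1 entry. The table gave chromatin immunoprecipitation (ChIP-seq) read counts for di- and trimethylation of lysine 79 of histone H3 (H3K79me2 and H3K79me3). The cells were primary mouse hematopoietic progenitors taken from the marrow. A retrovirus brought in MLL-AF9 as the D544R mutant, the D546R mutant or the WT fusion. All 3 groups therefore carried an MLL-AF9 fusion, and cells without a fusion were not analysed here. MLL-AF9 is a leukemia fusion protein whose AF9 part binds DOT1L, the H3K79 methyltransferase. By its title, the study asked how the degree of DOT1L recruitment to the fusion sets H3K79 di- and trimethylation on target genes. The comparison asked here is how far the marks on these 10 genes differed between the mutants and WT.

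Blood stem cells are kept by a small circuit of transcription factors that bind the same enhancers and each other's genes. In it TAL1 or LYL1, basic helix-loop-helix proteins, are joined through LMO2 to the zinc finger protein GATA2, and the ETS proteins ERG and FLI1 bind beside them. Several of the genes, among them Tal1, Lmo2, Lyl1, Mecom, Erg and Etv6, are also altered in human leukemias. H3K79 methylation is laid down over the bodies of transcribed genes and is strongest toward their 5′ ends.

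Since ETS proteins are members of the circuit and can bind its genes, promoters of 4 members are shown with the ETS core in capitals. They are Tal1, the member past the 2-fold rule described below, its relative Lyl1, Hhex, and Etv6, the member with the most counts. The ETS core is GGAA on either strand, so that TTCC in capitals is the same core on the other strand. Each window runs from 250 bases before to 50 bases after a RefSeq transcription start on build GRCm38.p6, 5′ to 3′ along the gene. Tal1, which has 2 such windows, lies on the plus strand at chr4:115056176-115056475 and chr4:115057561-115057860. Lyl1 lies on the plus strand at chr8:84701207-84701506, Hhex at chr19:37434591-37434890 and Etv6 at chr6:134035450-134035749, both also on the plus strand.
Tal1, first window: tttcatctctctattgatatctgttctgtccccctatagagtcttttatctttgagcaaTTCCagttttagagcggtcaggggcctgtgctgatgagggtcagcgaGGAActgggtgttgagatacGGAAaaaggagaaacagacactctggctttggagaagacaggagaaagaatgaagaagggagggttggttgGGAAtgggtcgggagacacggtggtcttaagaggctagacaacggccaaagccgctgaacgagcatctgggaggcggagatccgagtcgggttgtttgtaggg
Tal1, second window: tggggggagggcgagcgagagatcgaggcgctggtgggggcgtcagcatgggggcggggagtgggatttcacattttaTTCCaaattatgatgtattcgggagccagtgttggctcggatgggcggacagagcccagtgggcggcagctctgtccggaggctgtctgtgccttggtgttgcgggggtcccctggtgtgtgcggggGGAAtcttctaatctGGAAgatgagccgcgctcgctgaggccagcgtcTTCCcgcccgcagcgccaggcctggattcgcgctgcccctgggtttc
Lyl1: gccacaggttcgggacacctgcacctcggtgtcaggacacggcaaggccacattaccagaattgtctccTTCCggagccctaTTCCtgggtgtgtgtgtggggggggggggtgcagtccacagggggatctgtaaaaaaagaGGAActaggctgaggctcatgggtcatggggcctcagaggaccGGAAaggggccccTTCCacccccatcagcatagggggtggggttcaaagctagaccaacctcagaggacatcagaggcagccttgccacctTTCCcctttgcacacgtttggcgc
Hhex: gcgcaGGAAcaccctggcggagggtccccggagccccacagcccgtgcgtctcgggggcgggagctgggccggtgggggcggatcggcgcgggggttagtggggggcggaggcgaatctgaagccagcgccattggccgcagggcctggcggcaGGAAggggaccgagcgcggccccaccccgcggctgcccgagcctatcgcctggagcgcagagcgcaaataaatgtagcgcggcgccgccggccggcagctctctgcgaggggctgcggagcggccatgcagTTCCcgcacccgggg
Etv6: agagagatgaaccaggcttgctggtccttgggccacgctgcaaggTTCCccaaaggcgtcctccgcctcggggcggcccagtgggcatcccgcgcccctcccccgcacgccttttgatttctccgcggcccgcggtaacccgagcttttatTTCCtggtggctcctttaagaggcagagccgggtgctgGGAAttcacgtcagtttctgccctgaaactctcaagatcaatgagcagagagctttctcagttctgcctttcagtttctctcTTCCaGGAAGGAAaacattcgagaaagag
The core occurred 4 times in each Tal1 window, 6 times at Lyl1, 3 times at Hhex and 6 times at Etv6. All 13 windows of the 8 members with a RefSeq entry held it, as did 96.0% of the 32851 RefSeq promoter windows of the same length. The GATA core GATAA was in 4 of the 13 windows, against 25.4% of all windows. The E-box CANNTG was in 6 of 13, against 72.3% of all windows, and CAGATG, an E-box form that TAL1 complexes bind and that CANNTG includes, was in 2 of 13, against 17.2%. These matches are letters in the windows and say nothing of binding. Lmo2 and Fli1 had no entry.

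There was 1 library for each genotype and mark, with no replicates, so no test between genotypes was possible. The D544R, D546R and WT libraries held 4287873, 3558329 and 5993741 counts in H3K79me2, and 5207395, 6652571 and 5859821 counts in H3K79me3. From the share of short regions without a count, reads per independent fragment were estimated at 3.26 to 4.78 in H3K79me2 and 8.12 to 18.6 in H3K79me3. The estimate takes the same density for all short regions. Real differences between genes therefore raise it too, and fragment intervals may be too wide. An interval of each of 2 kinds is therefore given beside log2 ratios of normalised counts. The 95% counting interval takes each read as independent, and the wider fragment interval first divides the counts by the reads per fragment. Neither covers variation between cultures. The 2-fold rule asked for a mean normalised count of at least 100, a ratio of 2-fold or more, and a counting interval that left out no change. In bulk chromatin, fewer cells carrying a mark on a gene and less of the mark per cell cannot be told apart. The labelled cell type was set against marker genes. The 13 myeloid markers had median H3K79me2 levels of 4.27, 6.94 and 4.48 times those of silent genes in D544R, D546R and WT cells, from 1741, 1746 and 2187 counts in all, with none at 0. The 10 stem cell surface markers had 1.39, 1.71 and 1.30 times. Megakaryocyte, lymphoid, erythroid and endothelial markers had 0.82 to 1.46 times, with 1 megakaryocyte (Gp9) and 1 endothelial gene (Cldn5) at 0 in D546R. The 6 mast cell and basophil markers in the table had 1.41, 3.27 and 1.39 times, from 222, 261 and 271 counts, and were thus high in D546R in H3K79me2. In H3K79me3 the myeloid median was 1.29, 1.95 and 2.77 times, lowest in D544R as Tal1 and Lyl1 were in that mark. It was the highest of the lists in D546R and WT. In D544R it was below the stem surface (1.92), lymphoid (1.52) and erythroid (1.40) medians. The mast cell and basophil median in H3K79me3 was 1.10, 0.41 and 0.92 times, from 270, 230 and 171 counts. It was lowest in D546R, where 2 of the 6 genes were at 0. By normalised counts the median log2 ratio of D546R to WT was 0.45, over the 5 of these genes with a mean of at least 10. By normalised counts the myeloid H3K79me3 medians were -0.58 in D544R and 0.34 in D546R as log2 ratios to WT, so D546R was below WT only on the silent scale. The part of other cell types in the ratios below was not tested.

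Levels per length were set against the median counts per kb of 40 genes that are silent in blood, and are called times the silent level. In H3K79me2 the 10 genes covered a wide span in every genotype. Etv6, an ETS family repressor needed for stem cells to survive in the marrow, stood at 11.1 times in D544R, 17.0 times in D546R and 11.5 times in WT cells. Fli1, an ETS activator of blood and vessel genes, was at 11.0, 19.4 and 10.5 times in the same order. Lmo2, the LIM protein that bridges the complex, was at 8.75, 7.51 and 9.93 times. In WT cells these 3 genes were above 97.4% of all genes or more, and their intervals lay above that of the next member, Erg.

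Erg, the ETS factor closest to Fli1, was at 4.41, 6.22 and 4.41 times the silent H3K79me2 level in D544R, D546R and WT cells. Lyl1 was at 6.17, 9.64 and 4.19 times, Hhex at 3.23, 10.7 and 3.15 times, and Tal1 at 3.07, 4.32 and 2.93 times. Gata2 was lower, at 2.46, 1.99 and 2.23 times. Mecom (1.29, 1.33 and 1.12 times) and Hlf (1.34, 1.14 and 0.89 times) had intervals that included the silent level in all 3 genotypes. In WT cells only 19.2% of all genes were lower than Hlf per length. The circuit thus ran from genes among the most marked in the table to genes that could not be told from silent ones at this depth. Most neighbours in the order had overlapping fragment intervals, namely 8, 9 and 8 of the 9 neighbouring pairs in D544R, D546R and WT cells. The pairs without overlap were Fli1 above Lmo2 in D544R and Lmo2 above Erg in WT. Overlap does not show that 2 levels are the same, and the ratios between neighbours were not tested.

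The multiples of D546R depend on the yardstick, since the silent genes had 0.552 times the median counts per kb of all genes in that library, against 0.755 times in D544R and 0.731 times in WT. Measured against the median of all genes, Fli1 H3K79me2 was at 8.34, 10.7 and 7.69 times in D544R, D546R and WT cells, and Etv6 at 8.39, 9.39 and 8.42 times.

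In H3K79me3 the same 3 genes stood highest in D544R and WT, at lower multiples. Fli1 stood at 4.15, 3.85 and 6.20 times the silent level in D544R, D546R and WT cells, Etv6 at 3.63, 2.83 and 5.46 times, and Lmo2 at 3.14, 1.92 and 4.25 times. Lyl1 was at 1.15, 3.19 and 4.05 times and Tal1 at 1.10, 2.18 and 2.64 times, both lowest in D544R. Erg was at 2.51, 1.45 and 2.33 times and Hhex at 2.46, 1.32 and 1.57 times. The remaining genes, Mecom, Hlf and Gata2, lay between 0.56 and 1.57 times. All 9 neighbouring pairs overlapped in each genotype. In D544R 7 members, in D546R 6 and in WT 6 had fragment intervals above the silent level. That of Mecom in D546R (0.56 times, 0.28 to 0.98) lay below it. The silent level is a median, and these intervals leave out the spread of the silent genes. Of the silent genes, 28 were at or above Mecom in D546R. In D544R 14 were at or above Hlf and 14 at or above Mecom, both counted among the 7. For Fli1, Etv6, Lmo2, Erg and Hhex in D544R it was 0 to 3. Mecom in D546R, and Hlf and Mecom in D544R, thus lay within the range of the silent genes. In this mark the silent genes of D546R were at 1.07 times the median of all genes, against 0.701 times in WT, so the multiples of D546R depend on the yardstick here too.

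**Figure D1:**
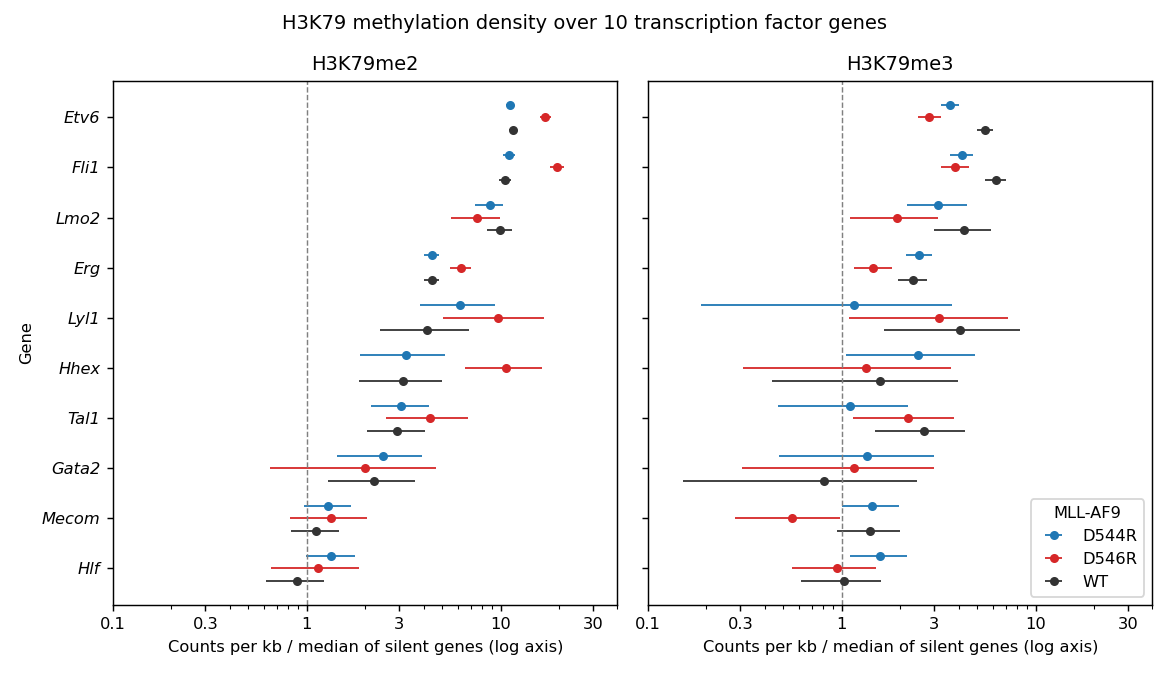
Counts per kb of each gene as multiples of the median of 40 silent genes (log axis) in the D544R, D546R and WT libraries, for H3K79me2 and H3K79me3. Points are single libraries and bars are fragment intervals; Etv6 and Fli1 sit highest in H3K79me2 in all 3 genotypes, followed by Lmo2 in D544R and WT and by Hhex in D546R, and Mecom and Hlf lie lowest in that mark.

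Lmo2 (NM_001142337, mm9 chr2:103796151-103822035), the bridge between the DNA-binding factors, had 489 H3K79me2 counts in D544R, 226 in D546R and 735 in WT cells. They normalised to 502.9, 295.9 and 545.9. D546R was the low library, while D544R and WT lay close together. D546R was 1.84-fold lower than WT (log2 ratio -0.88, counting interval -1.11 to -0.67, fragment interval -1.38 to -0.42). Among genes at the mean of 100, only 1.37% had a lower ratio. It was also 1.70-fold lower than D544R (-0.76, fragment interval -1.27 to -0.29), while D544R against WT was at -0.12. The D546R ratio to WT stayed short of 2-fold by the size factors used and was -1.14, past 2-fold, when ratios were centred on a smooth curve (loess) along the counts per kb. In H3K79me3 Lmo2 had 268, 300 and 356 counts in D544R, D546R and WT, with log2 ratios to WT of -0.24 for D544R and -0.50 for D546R. Both fragment intervals of Lmo2 H3K79me3 included no change. With silent genes as the reference that of D546R was -1.94 to -0.12 and left it out.

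Tal1 (NM_011527, mm9 chr4:114727030-114744360) encodes the helix-loop-helix factor without which no blood forms. It had 115, 87 and 145 H3K79me2 counts, and its normalised counts in that mark were 118.3 in D544R, 113.9 in D546R and 107.7 in WT, with log2 ratios to WT of 0.13 and 0.08. In H3K79me3 it had 63, 228 and 148 counts, which normalised to 72.3 in D544R, 195.1 in D546R and 150.7 in WT. Here D544R was the low library, and D546R was the high one with the size factors used. Tal1 H3K79me3 was 2.08-fold lower in D544R than in WT (log2 ratio -1.05, counting interval -1.51 to -0.63). That put it past the 2-fold rule, but its fragment interval of -2.52 to 0.28 included no change. Centring along the counts per kb gave -0.98, just inside 2-fold. D546R against D544R was 2.69-fold higher (1.43, counting interval 1.02 to 1.86), past the rule, with a fragment interval of 0.02 to 2.94, or -0.27 to 2.66 with silent genes as the reference. D546R against WT was at 0.37, and its fragment interval included no change. Over the alternative scalings this ratio ran from -0.13 to 0.46, so its direction was not settled. The low Tal1 H3K79me3 count was thus that of the D544R library and not of D546R.

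Lyl1 (NM_008535, mm9 chr8:87223355-87228615), the closest relative of Tal1, had 70, 59 and 63 H3K79me2 counts in D544R, D546R and WT. They normalised to 72.0, 77.2 and 46.8, with log2 ratios to WT of 0.62 for D544R and 0.72 for D546R whose fragment intervals included no change. In H3K79me3 it had 20, 101 and 69 counts, normalised to 22.9, 86.4 and 70.3. As for Tal1, D544R was the low library in H3K79me3 alone. The log2 ratio of D544R to WT was -1.59 (counting interval -2.41 to -0.88, fragment interval -4.51 to 0.63). Its mean of 59.9 was below the minimum of 100, so the rule was not applied. D546R was at 0.30 against WT and at 1.89 against D544R (counting interval 1.21 to 2.68, fragment interval -0.50 to 4.88). The 5.26 kb region of Lyl1 shared 2357 bases (44.8%) with those of Trmt1, a tRNA methyltransferase gene, and Nfix, a transcription factor gene, and thus part of its counts. In H3K79me3 Nfix had 359 counts in D544R and 221 in WT, a log2 ratio of 0.87 (fragment interval 0.11 to 1.67). Trmt1, which shares 352 bases, had 52 and 27 counts, at 1.10 with a fragment interval of -1.11 to 3.84 that included no change.

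Gata2 (NM_008090, mm9 chr6:88146657-88157026), the zinc finger factor on which stem cell expansion depends, was thinly covered. It had 55, 24 and 66 H3K79me2 counts and 46, 72 and 27 H3K79me3 counts in D544R, D546R and WT. D546R was the low library in H3K79me2 (31.4 normalised counts, against 56.6 in D544R and 49.0 in WT), while the H3K79me3 values were 52.8 in D544R, 61.6 in D546R and 27.5 in WT, the lowest. The D544R ratio to WT was 0.20 in H3K79me2 and 0.93 in H3K79me3, and the D546R ratio to WT was -0.63 and 1.15. The fragment intervals of D546R against WT, -2.44 to 0.87 and -1.48 to 4.06, both included no change, as did those of D544R, and the mean was below 100 in both marks.

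The 3 ETS genes were the longest regions and the best covered members. Erg (NM_133659, mm9 chr16:95579810-95751972, 172.162 kb) had 1637, 1246 and 2171 H3K79me2 counts in D544R, D546R and WT. After normalisation they were 1683.6, 1631.2 and 1612.4, with no library standing apart. The log2 ratios to WT were 0.06 for D544R (fragment interval -0.12 to 0.24) and 0.02 for D546R (fragment interval -0.20 to 0.23). Centring along the counts per kb moved the D546R value to -0.25 (-0.47 to -0.03). In H3K79me3 Erg had 1637.4, 1291.3 and 1318.9 normalised counts. D544R was highest, at 0.31 over WT (counting interval 0.20 to 0.42, fragment interval -0.02 to 0.65).

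Fli1 (NM_008026, mm9 chr9:32227792-32348953) had 2889, 2740 and 3648 H3K79me2 counts, which normalised to 2971.2 in D544R, 3587.1 in D546R and 2709.4 in WT. D546R was the high library. It was 1.32-fold higher than WT (log2 ratio 0.40, fragment interval 0.25 to 0.56) and 1.21-fold higher than D544R (0.27, 0.12 to 0.42). The best marked regions as a group were also higher: the 891 genes with the most counts per kb, Fli1 and Etv6 among them, had a median ratio of 0.19 in D546R against WT. Centring along the counts per kb left Fli1 at 0.20 against WT (fragment interval 0.05 to 0.36) and at 0.12 against D544R (-0.04 to 0.27). In H3K79me3 Fli1 had 1659, 2811 and 2431 counts, normalised to 1903.6 in D544R, 2405.5 in D546R and 2475.8 in WT, so here D544R was low. The ratio of D544R to WT was -0.38 (fragment interval -0.65 to -0.11). That of D546R to WT was -0.04, but 0.32 (0.02 to 0.62) with centring along the counts per kb and -0.54 (-0.85 to -0.25) with silent genes as the reference, so its direction was not settled.

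Etv6 (NM_007961, mm9 chr6:133983724-134220165, 236.441 kb) had the most counts of the 10. Its H3K79me2 counts were 5671, 4677 and 7792 in D544R, D546R and WT, and 5832.4, 6122.9 and 5787.3 after normalisation. The genotypes lay close together, with log2 ratios to WT of 0.01 for D544R and 0.08 for D546R (fragment interval -0.03 to 0.19). Centring along the counts per kb turned the D546R value to -0.12 (-0.24 to -0.01), so its direction was not settled. In H3K79me3 it had 2833, 4029 and 4173 counts, normalised to 3250.7 in D544R, 3447.8 in D546R and 4249.9 in WT. Both mutants were below WT, at -0.39 in D544R (fragment interval -0.59 to -0.18) and -0.30 in D546R (-0.54 to -0.06; -0.48 to 0.01 with scaling by total counts). The 1083 regions with the most counts per kb had H3K79me3 medians of -0.25 in D544R and -0.36 in D546R. Once libraries were centred along the counts per kb, Etv6 stood at -0.17 (fragment interval -0.38 to 0.04) and -0.01 (-0.25 to 0.23), and Fli1 in D544R at -0.14 (-0.42 to 0.13). All 3 intervals then included no change.

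Mecom (NM_007963, mm9 chr3:29848217-29912126), whose EVI1 product sustains stem cells and marks aggressive leukemias, had 178, 99 and 204 H3K79me2 counts in D544R, D546R and WT. Normalised they were 183.1, 129.6 and 151.5, and both ratios to WT had fragment intervals that included no change. In H3K79me3 the normalised counts were 345.4, 183.1 and 294.3, lowest in D546R. D546R was at -0.68 against WT (counting interval -0.95 to -0.42, fragment interval -1.81 to 0.34) and at -0.91 against D544R (-1.17 to -0.66, fragment interval -2.01 to 0.07). RefSeq lists 2 starts of Mecom that are 496.555 kb apart, so the 63.909 kb region of the table holds only part of the locus.

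Hhex (NM_008245, mm9 chr19:37507330-37515221), a homeobox gene of early blood and B cell development, had 55, 98 and 71 H3K79me2 counts in D544R, D546R and WT. D546R had 128.3 normalised counts, against 56.6 in D544R and 52.7 in WT, which lay close together. D546R was 2.42-fold higher than WT (log2 ratio 1.27, counting interval 0.83 to 1.74, fragment interval 0.29 to 2.29) and 2.26-fold higher than D544R (1.17, fragment interval 0.18 to 2.20). Centring along the counts per kb gave 1.00 (0.02 to 2.02) and 0.91 (-0.08 to 1.94). Its mean of 79.2 was below 100, so the rule was not applied. On the silent level scale the same counts stood at 10.7 times in D546R, 3.23 times in D544R and 3.15 times in WT. That is no separate check, since the silent genes of D546R were low in this mark. In H3K79me3 Hhex had 64, 63 and 40 counts and was not high in D546R, at 53.9 normalised counts against 73.4 in D544R and 40.7 in WT. The fragment intervals in that mark were wide, from -1.04 to 3.01 for D544R against WT.

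Hlf (NM_172563, mm9 chr11:90195848-90252231), a PAR leucine zipper gene that is a marker of long-lived stem cells, had 163, 75 and 143 H3K79me2 counts in D544R, D546R and WT. D544R was high at 167.6 normalised counts, against 98.2 in D546R and 106.2 in WT. It was 1.58-fold higher than WT (log2 ratio 0.66, counting interval 0.33 to 0.99, fragment interval 0.01 to 1.32), and 99.5% of genes at the minimum had a lower ratio. With silent genes as the reference the fragment interval was -0.07 to 1.24. In H3K79me3 Hlf had 293, 320 and 186 counts, normalised to 336.2 in D544R, 273.8 in D546R and 189.4 in WT. WT was the low library with the size factors used. The ratios were 0.83 for D544R (counting interval 0.56 to 1.10, fragment interval -0.01 to 1.71) and 0.53 for D546R (0.27 to 0.80, fragment interval -0.50 to 1.55). Over the alternative scalings the D546R ratio ran from 0.03 to 0.60. Per length, D546R stood at 0.94 times the silent level and WT at 1.02 times. The level of Hlf per length had an interval that included the silent level in every library except H3K79me3 of D544R, at 1.57 times (1.10 to 2.18). In that library 14 of the silent genes were at or above Hlf, so it lay within their range.

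**Figure D2:**
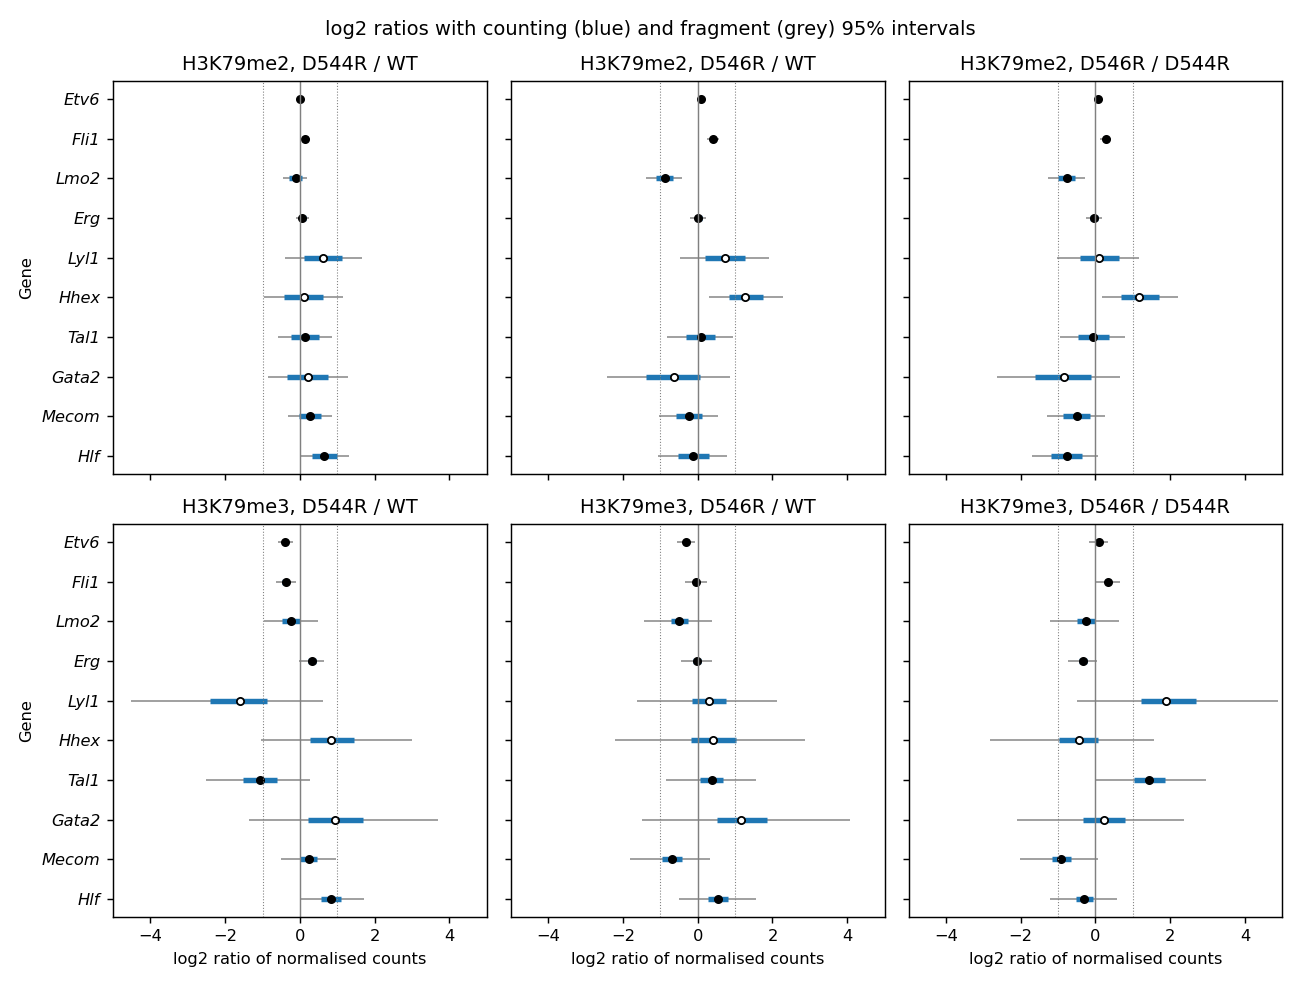
Log2 ratio of normalised counts of each gene in D544R and D546R against WT and in D546R against D544R, for H3K79me2 and H3K79me3. Blue bars are counting intervals and grey bars fragment intervals, open circles have a mean below 100 and dotted lines mark 2-fold. Against WT, Lmo2 in D546R H3K79me2 stands at -0.88 and Tal1 in D544R H3K79me3 at -1.05.

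Counted over the list, few members were past the 2-fold rule. In each mark 7 of the 10 members reached the mean of 100, all but Gata2, Lyl1 and Hhex. In H3K79me2 D544R against WT 0 of the 7 were past the rule, where 0.0449% of the 8905 genes tested were. In D546R against WT it was again 0 of 7, with 1.72% of genes past it, and in D546R against D544R 0 of 7, with 1.63%. In H3K79me3 1 of 7 was past the rule in D544R against WT (Tal1, lower), with 7.36% of 10824 genes past it, 3.02% lower and 4.34% higher. None of the 7 was past it in D546R against WT, although 15.9% of genes were, 8.91% lower and 6.95% higher. In D546R against D544R it was 1 of 7 (Tal1, higher), with 14.1% of genes past it, 5.78% higher and 8.3% lower. These counts are near the shares over all genes and are no result about the list. The comparisons of D544R and of D546R with WT share the WT library of each mark, so they are not independent.

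Fragment intervals left out no change, at any size of ratio, for 1 of 7 in H3K79me2 D544R against WT (Hlf), with 4.01% of genes doing so. For D546R against WT it was 2 of 7 (Lmo2 lower, Fli1 higher), with 18.2% of genes, and for D546R against D544R the same 2 genes, with 17% of genes. In H3K79me3 it was 2 of 7 for D544R against WT (Fli1 and Etv6, both lower), with 12.2% of genes. It was 1 of 7 for D546R against WT (Etv6), with 17.1% of genes, and 2 of 7 for D546R against D544R (Tal1 and Fli1, both higher), with 15.9% of genes.

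The members as a list lay near the centre of all genes. Their median log2 ratio in H3K79me2 was 0.13 in D544R against WT and 0.05 in D546R against WT, beside medians of -0.00 and 0.01 over 20308 genes. In H3K79me3 it was -0.00 and 0.13, beside -0.01 and -0.00 over 21777 genes. In H3K79me2 9 of the 10 were above 0 in D544R and 6 in D546R, and in H3K79me3 it was 5 of 10 in each. The exact shares of all genes above 0 were not computed, but their medians near 0 mean that all genes split about evenly around it. No set test was run, so these counts are no result about the list. Of the 9, Erg (0.06) and Etv6 (0.01) turned to -0.02 and -0.07 with silent genes as the reference. Single genes spread around the medians of the list in different directions, as the plot of all gene regions shows.

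**Figure D3:**
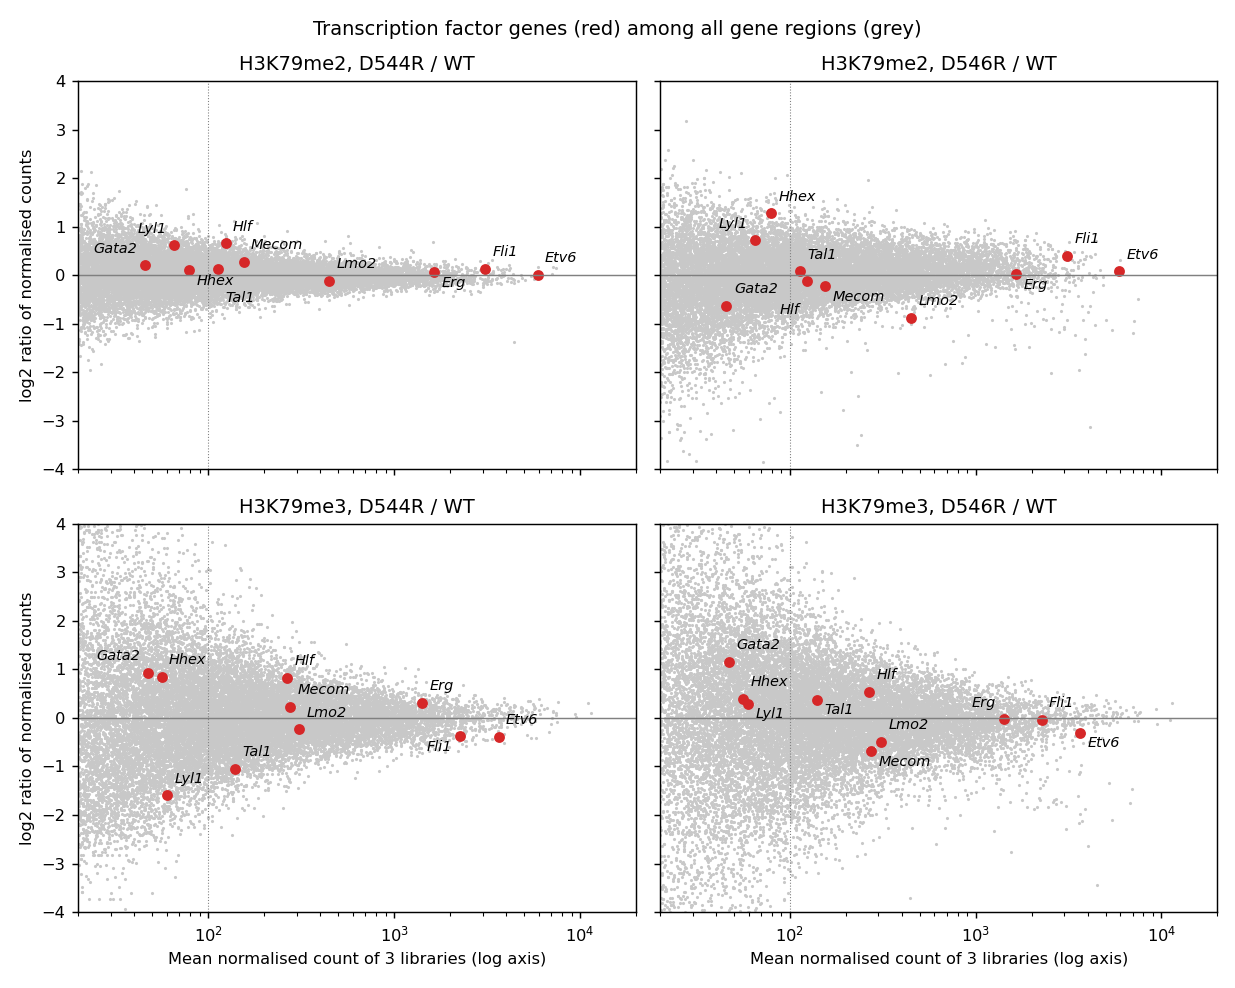
Log2 ratio of normalised counts (D544R and D546R against WT) by mean normalised count (log axis) for all regions with a mean of at least 20 (grey) and the 10 transcription factor genes (red). The dotted line marks a mean of 100, and the red points lie mostly inside the grey cloud, with Lmo2 near its lower edge in H3K79me2 of D546R.

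Ratios in the marks did not always have the same sign. The log2 ratio had opposite signs in H3K79me3 and H3K79me2 for 4 of 10 members in D544R against WT and for 5 of 10 in D546R against WT. Over all 19657 genes with a mean of at least 10 in both marks the shares were 48.7% and 49.6%, so the members were near the background. Both counting intervals left out no change with opposite signs for Lyl1 and Fli1 in D544R (2 of 10, with 6.05% of all genes) and for Etv6 in D546R (1 of 10, with 14.6%). The opposite signs of Etv6 did not hold with centring along the counts per kb. With fragment intervals there was no such member. In D546R against D544R, Fli1 was higher in both marks by fragment intervals (0.27 in H3K79me2 and 0.34 in H3K79me3). With silent genes as the reference the H3K79me3 value was 0.05 (-0.26 to 0.36).

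Proteins that work with the circuit were listed as 18 complex partners. They include RUNX1, the LDB and SSBP proteins that hold the LMO2 complex together, the E proteins that pair with TAL1, and co-repressors. In H3K79me2 15 of the 18 reached the mean of 100, and 0 were past the rule in either mutant against WT. Tcf4, an E protein gene, was lowest in D546R at -0.92, and Runx1 was highest at 0.68. In H3K79me3 14 reached it, with 0 past the rule in D544R. In D546R 2 were past it as lower and 2 as higher, where 8.91% and 6.95% of all genes were. The lower ones were Tcf12, an E protein gene (2123, 1702 and 3315 counts in D544R, D546R and WT; log2 ratio of D546R to WT -1.21), and Gfi1, a repressor gene (130, 77 and 143 counts; -1.14). The fragment interval of Gfi1, -3.16 to 0.49, included no change, while that of Tcf12, -1.56 to -0.88, left it out. The higher ones were Cbfa2t3, a co-repressor gene (367, 737 and 292 counts; 1.08), and Zfpm1, which encodes the GATA cofactor FOG1 (193, 437 and 152 counts; 1.27). Their fragment intervals, 0.36 to 1.82 and 0.29 to 2.30, left out no change. The medians of the list in D546R against WT were 0.09 in H3K79me2 and -0.10 in H3K79me3.

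Of 15 family relatives of the members, 5 reached the mean of 100 in H3K79me2 and 6 in H3K79me3. None was past the rule against WT in H3K79me2. In H3K79me3 Gata4 (-1.12) and Gata6 (-1.10), factors of heart and gut, were past it as lower in D544R, where 3.02% of all genes were. None of the relatives was past it in D546R. The WT H3K79me2 levels of Gata4 and Gata6 were 1.08 and 0.99 times the silent level, and their fragment intervals in H3K79me3 D544R against WT included no change.

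Of 12 other stem cell regulators, 8 reached the mean of 100 in each mark, and Meis1, a homeobox cofactor and well known MLL fusion target, stood far from the circuit genes. Its D546R ratio to WT was -3.12 in H3K79me2 and -2.64 in H3K79me3, from a WT H3K79me2 level of 18.3 times the silent level. Zfx, a zinc finger factor of stem cell renewal, was past the rule in D546R in H3K79me3 alone (-1.14, fragment interval -1.78 to -0.54). Of all genes, 8.91% were past the rule as lower in D546R in H3K79me3, and 1.72% in either direction in H3K79me2. None of the 12 was past it in D544R. Fli1 and Etv6, with H3K79me2 levels of 10.5 and 11.5 times in WT, were at 0.40 and 0.08 in the comparison in which Meis1 was at -3.12.

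Etv6, the member with the most counts, and Hlf, the one farthest from 0 among the 7 with means of at least 100, were set against the 3530 genes with means of at least 300 in both marks. Likeness was the distance between the 4 log2 ratios of both mutants to WT in both marks. Nearest to Etv6 were Nup98, a nuclear pore gene (distance 0.06), G3bp2, a stress granule gene (0.10), and Eif3e, a translation initiation gene (0.12). Nearest to Hlf were Nfix (0.54), the red cell ankyrin gene Ank1 (0.55) and the choline transporter gene Slc44a1 (0.56). Hlf itself had a mean below 300 in each mark, so genes of its own depth were not searched.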

How the data were processed

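The authors deposited raw read counts per gene and library, and per the file headers a region began 2 kb upstream of the gene's start and ran to its end, in mm9 coordinates and without normalization. The submitters' processing notes name mm9, bedtools, Bowtie and DESeq. The role and version of each tool, and the handling of duplicate reads, were not given in the sources used here. Per the labels, chromatin was sheared to about 300 bp and reads of several runs were merged. Totals were 3558329 to 6652571 counts per library.

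From these counts, each mark's 3 libraries were scaled by median-of-ratios size factors (0.972, 0.764 and 1.35 for D544R, D546R and WT in H3K79me2, and 0.872, 1.17 and 0.982 in H3K79me3). They come from genes counted in all 3 libraries, 23029 in H3K79me2 and 20863 in H3K79me3. Log2 ratios used a prior count of 0.5, and 95% intervals were exact conditional binomial (Clopper-Pearson) intervals. Reads per fragment were estimated from how many of the 4591 autosomal regions under 5 kb lacked any count, with the same density taken for all. Medians of lists used genes with a mean of at least 10. The table gives no strand, so the side of the 2 kb extension was not checked for Erg, Mecom and Hlf, which RefSeq places on the minus strand. Only Lyl1 overlapped other regions. The members, gene lists and named genes (all members, list genes past the 2-fold rule with the lowest and highest D546R value, and the 3 nearest genes) were chosen with earlier results of these data known. The ratios and counting intervals were tested on simulated data. The reads per fragment were tested only on simulated regions of equal density, and the fragment intervals were not tested. Alternatives were edgeR TMM factors, scaling by total counts, factors from the 6 libraries together, silent genes as the reference, loess centring along counts per kb, other minimums, folds and prior counts, and fragment intervals. Tools were Python 3.11.15, numpy 2.4.6, scipy 1.17.1, pandas 2.3.3, statsmodels 0.14.6, R 4.3.3 and edgeR 4.0.16.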

Additional observations from a re-analysis of the deposited data

Results flagged for a closer look

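For 3 results the 2 marks gave opposite signs with counting intervals that left out no change in each. In D544R against WT, Lyl1 had a log2 ratio of -1.59 in H3K79me3 and 0.62 in H3K79me2, a difference of -2.21 between the marks. Fli1 in the same comparison had -0.38 and 0.13, a difference of -0.51. With silent genes as the reference its H3K79me2 value was 0.05 (counting interval -0.02 to 0.12). In D546R against WT, Etv6 had -0.30 in H3K79me3 and 0.08 in H3K79me2, a difference of -0.38. With loess centring along the counts per kb Etv6 was at -0.01 in H3K79me3 and -0.12 in H3K79me2, no longer opposite, and with total counts its H3K79me2 counting interval was -0.04 to 0.07. The differences themselves were not tested, since each value comes from 1 library per genotype. In none of the 3 did the fragment intervals of both marks leave out no change. The 5.26 kb region of Lyl1 shares 44.8% of its bases with regions of Trmt1 and Nfix.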

How the results depend on the processing

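No paired analysis was possible because each group held 1 library. Depth limited Gata2, Lyl1 and Hhex, whose means were below 100 in both marks, and every H3K79me3 value, given 8.12 to 18.6 reads per fragment. A loss or gain of a mark over all genes is removed by the scaling.

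The counts of members past the 2-fold rule changed as follows. In H3K79me2 D544R against WT 0 became 1 (Hlf) with a 1.5-fold threshold. In D546R against WT 0 became 1 with loess centring (Lmo2), with no minimum (Hhex) and with 1.5-fold (Lmo2). In D546R against D544R 0 became 1 with no minimum (Hhex) and 2 with 1.5-fold (Lmo2 and Hlf). In H3K79me3 D544R against WT 1 (Tal1) became 0 with loess centring, with a minimum of 300 and with fragment intervals. It became 2 with no minimum (Lyl1 added) and with 1.5-fold (Hlf added). In D546R against WT 0 became 1 with the silent reference (Mecom), with no minimum (Gata2) and with 1.5-fold (Mecom). In D546R against D544R 1 (Tal1) became 2 with the silent reference (Mecom added), with no minimum (Lyl1 added) and with 1.5-fold (Mecom added), and 0 with a minimum of 300. The minimum and threshold changes follow from which genes they admit, and the shares of all genes past the rule moved too. With no minimum they were 4.16% to 13.1% in H3K79me2 and 26.4% to 36.7% in H3K79me3, and with 1.5-fold 1.37% to 13.1% and 24% to 36.5%. The silent reference gave 26% in H3K79me3 D546R against WT and 17.4% in D546R against D544R. The cause of the others was not tested.

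The median of the members moved in H3K79me2 D546R against D544R to 0.14 with the silent reference, against -0.05. In H3K79me3 it moved to -0.31 in D544R against WT with a minimum of 300, against -0.00, and in D546R against WT to -0.37 with the silent reference and -0.17 with a minimum of 300, against 0.13. With the silent reference the median of all genes was itself 0.20 in H3K79me2 D546R against D544R, 0.12 and -0.51 in D546R against WT in H3K79me2 and H3K79me3, and -0.23 in H3K79me3 D544R against WT, against 0.01, 0.01, -0.00 and -0.01 with the size factors used. Of 360 single gene ratios under 6 alternatives, 318 stayed within their counting interval, 42 moved beyond it and 25 had another sign. Under the silent reference 25 moved, with loess centring 13 and with total counts 4, while TMM, 6-library factors and a prior count of 2 moved none.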
